A study of Homo sapiens with 12 samples.

Results

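The genes described here encode a DNA-binding complex of erythroid cells and its close relatives. They are the GATA factors GATA1 and GATA2, the basic helix-loop-helix proteins TAL1 and LYL1, the LIM-only protein LMO2, its scaffold LDB1, the E proteins TCF3 and TCF12, and the cofactors ZFPM1 and CBFA2T3. These 10 genes were chosen by name for their place in the complex, with earlier results of these data known. All 10 are among the 60658 rows of the expression table and among the 13393 genes that could be tested, those with at least 1 FPKM in at least 3 of the 12 libraries. FPKM counts the sequenced fragments of a gene relative to its transcript length and to the size of the library.

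RNA sequencing was done on K-562 cells, an established human erythroleukemia line, in 4 groups of 3 libraries, 24 hours after siRNA transfection. The control group was a line stably expressing the 3xTY1 tag alone that received a non-targeting siRNA, and the knockdown group was the same tag line given the MYB siRNA si2992. The wild-type rescue was a line stably expressing 3xTY-hcM and the D152V rescue a line stably expressing 3xTY-D152V, which both received si2992; the sample titles call them MYB-WT_Rescue and D152V_Rescue. All lines were selected with G418. Each rescue rests on 1 stable line, and the labels do not say whether a line is a clone. A rescue therefore differs from the knockdown group in its line as well as in its transgene, and these cannot be told apart. The design text speaks of separate experiments for the 3 replicates, and p-values measure the spread between these samples.

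In red cell precursors GATA1 binds GATA motifs and TAL1 binds E-boxes as a dimer with an E protein. LMO2 does not bind DNA itself; it bridges TAL1 and the GATA factor and ties them to LDB1, which self-associates and can bring distant enhancers to promoters. GATA2 takes the place of GATA1 in earlier progenitors, LYL1 is a paralog of TAL1, ZFPM1 (FOG1) binds GATA factors directly, and CBFA2T3 (ETO2) brings corepressors. MYB is a transcription factor that keeps haematopoietic progenitors immature.

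MYB itself was at 104 to 132 FPKM in the control libraries, 26.1 to 32.9 in the knockdown, 115 to 132 in the wild-type rescue and 86.2 to 100.4 in the D152V rescue. The D152V line held less MYB RNA than the wild-type line (log2 change -0.44, SE 0.13, adjusted p = 0.0494, limma), so the substitution, the MYB level and the line cannot be told apart. The FPKM total was 672616 to 798362 in 11 libraries and 1215578 in knockdown replicate 1. In that library the quartile of genes with the longest transcripts lay a median of 0.49 below the mean of all libraries on the log2 scale and the quartile with the shortest lay 0.69 above it, against -0.12 to 0.17 and -0.17 to 0.06 elsewhere. Calls of the members that change without this library are given with their results. All 9 erythroid markers on a fixed list were tested, with a summed FPKM of 1352 to 2853 in the control, 1714 to 5914 in the knockdown, 973 to 2030 in the wild-type rescue and 2222 to 3805 in the D152V rescue. Of the markers of other cell types, PF4 (megakaryocytes), ELANE (granulocytes) and MS4A1 (B cells) were at 0 in every library, while others were not. The summed FPKM of 4 megakaryocyte markers (2 tested) was 1.17 to 3.79 over all libraries. The sum of 5 monocyte and granulocyte markers, nearly all of it the lysozyme gene LYZ and 1 of them tested, was 15.7 to 24.3 in the control, 8.26 to 27.8 in the knockdown, 10.8 to 14.1 in the wild-type rescue and 3.65 to 5.15 in the D152V rescue. The sum of 4 fibroblast and epithelial markers (2 tested), mostly EPCAM, was 58.3 to 60.0, 45.0 to 126.6, 53.1 to 75.9 and 33.0 to 39.1 in the same order. LYZ was lower in the D152V rescue than in the control (log2 change -2.07, adjusted p = 0.00528, limma) and the wild-type rescue (-1.33, adjusted p = 0.0416, limma). The part of these markers in the results was not tested.

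For 9 of the 10 members, all but LMO2, RefSeq promoters of the GRCh38.p14 assembly were at hand, 15 windows of 250 bases before a transcription start. The windows were searched on both strands for 3 motifs that bear on the complex. The MYB motif was a T or C followed by AACGG or AACTG, the GATA motif an A or T followed by GATAA or GATAG, and the E-box was CAGNTG. The E-box form CAGTTG is the MYB form CAACTG read on the opposite strand, so such a site counts as both motifs in the shares below. A MYB motif was present in 2 of the 15 windows, the one of the second GATA2 start and 1 of 5 of TCF12, against 21.1% of all 35116 promoters in the table. A GATA motif was also present in 2, of TAL1 and LYL1, against 22.3%, and an E-box in 2, of GATA2 and CBFA2T3, against 42.5%. The windows below are the GATA2 one that holds the MYB motif, the TAL1 one that holds a GATA motif, and that of LDB1, which holds none of the 3. A second TAL1 window holds none either. As a check, bases just after each start were sought in transcripts of the gene. They were not found for the TAL1 and LDB1 windows below, the TCF12 window with the MYB motif or that of CBFA2T3. The same was true of some other TCF12 windows. The LDB1 window lies inside the coordinates of the gene given below, so the 5′ end of LDB1 was not searched. The windows of ZFPM1 and CBFA2T3 also lie inside their genes. So do the window of the second GATA2 start, the second of TAL1 and all but the first of TCF12. The windows below run 5′ to 3′ on the gene's strand, and capitals mark the motif letters.
GATA2, second start, chr3:128488531-128488780, minus strand: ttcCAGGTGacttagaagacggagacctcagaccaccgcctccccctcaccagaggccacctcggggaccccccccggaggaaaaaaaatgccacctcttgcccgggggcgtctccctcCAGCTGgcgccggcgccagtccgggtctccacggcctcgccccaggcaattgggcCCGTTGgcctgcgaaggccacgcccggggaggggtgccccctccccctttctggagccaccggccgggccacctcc
TAL1, chr1:47232336-47232585, minus strand: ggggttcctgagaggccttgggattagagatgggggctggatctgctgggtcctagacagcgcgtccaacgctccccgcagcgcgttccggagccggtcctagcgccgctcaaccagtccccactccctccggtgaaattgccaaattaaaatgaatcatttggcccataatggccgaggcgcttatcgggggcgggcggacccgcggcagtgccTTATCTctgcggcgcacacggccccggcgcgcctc
LDB1, chr10:102115003-102115252, minus strand: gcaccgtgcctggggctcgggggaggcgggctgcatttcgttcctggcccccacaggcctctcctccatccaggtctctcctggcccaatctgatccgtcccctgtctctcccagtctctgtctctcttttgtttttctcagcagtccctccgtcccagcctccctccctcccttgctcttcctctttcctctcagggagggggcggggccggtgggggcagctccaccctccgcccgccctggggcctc
In the GATA2 window the MYB motif begins 76 bases before the start and the E-boxes 247 and 131 bases before it. The GATA motif of TAL1 begins 35 bases before its start, and that of LYL1 27 bases before its own. A match says only that the letters are present in these windows.

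In control cells GATA1 had the highest level of the 10, at 100.3 to 135 FPKM, above every value of the next gene. TCF3 (68.1 to 78.1), GATA2 (63.0 to 69.0), LDB1 (65.6 to 66.8) and LYL1 (56.5 to 66.7) followed, and neighbours in that order overlapped. CBFA2T3 (39.7 to 42.4), TAL1 (34.9 to 38.8), LMO2 (22.3 to 31.1) and TCF12 (24.6 to 28.7) were lower, with overlap between LMO2 and TCF12, and ZFPM1 was lowest at 4.36 to 5.17. TAL1 and LMO2 RNA were thus below that of their GATA, E-protein TCF3 and scaffold partners in FPKM, a scale that takes transcript length into account.

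**Figure D1:**
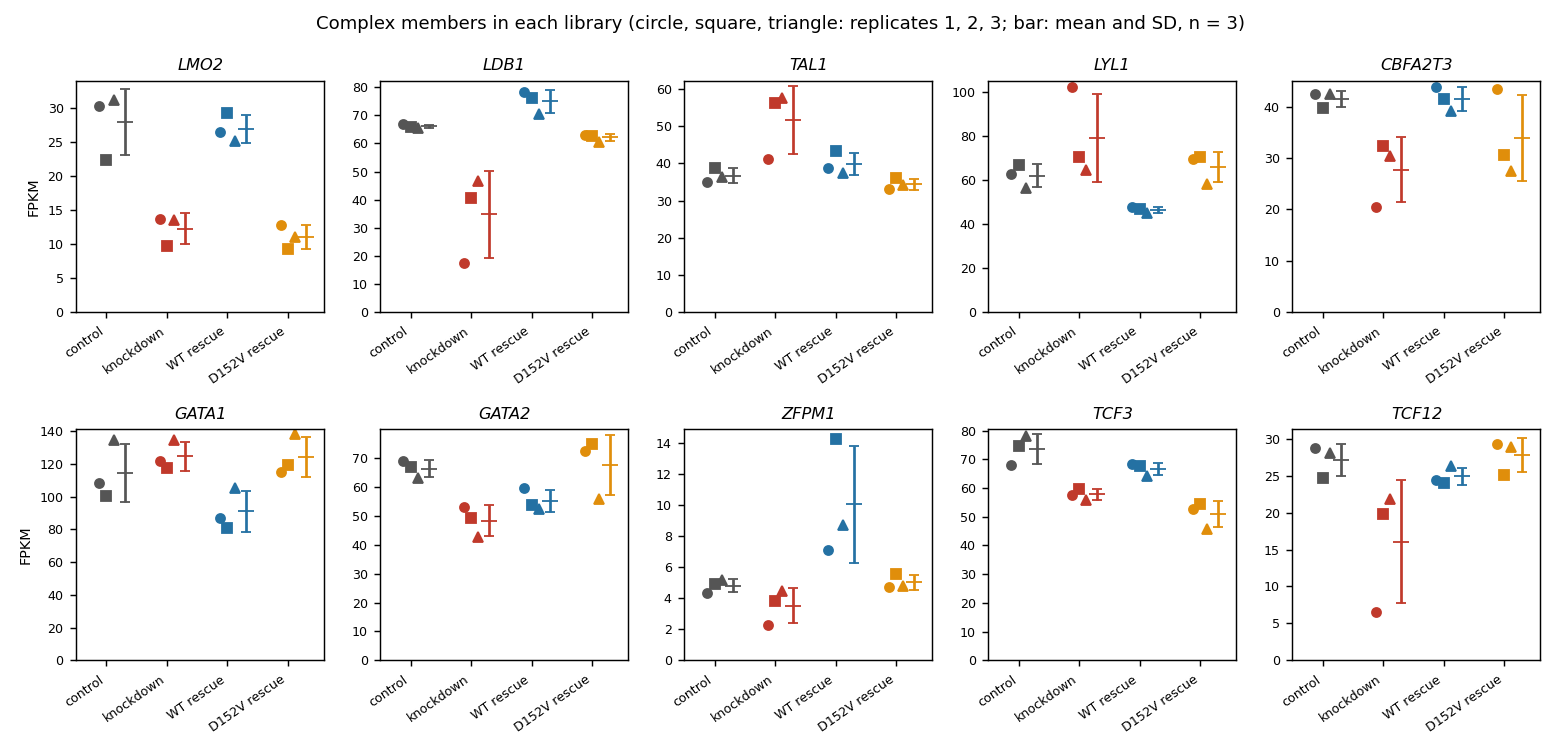
FPKM of each of the 10 genes in the 12 libraries, by group, with the mean and SD of 3 replicates. LMO2 is low in the knockdown and in the D152V rescue, at 9.33 to 13.7 FPKM, and at 22.3 to 31.1 in the other 2 groups.

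Counts of called members differed between the comparisons. A gene was called at an adjusted p under 0.05 (limma, Benjamini-Hochberg over all 13393 genes). Shares of all genes are at this threshold. Counts at an unadjusted p under 0.05 are given without a share of all genes, which was not computed. After knockdown against control 1 member was higher and 2 were lower, where 3.94% of all tested genes were higher and 7.38% lower. In that comparison 34.8% of all calls were higher, a share of 45.5% under quantile normalization and 46.9% under median-ratio scaling. The wild-type rescue against the knockdown called 4 members higher and 2 lower, beside 20.6% and 16.9% of all genes. The D152V rescue against the knockdown called 2 higher and 1 lower, beside 13% and 12%. The D152V rescue against the wild-type rescue called 0 higher (2 at an unadjusted p under 0.05, GATA1 and LYL1) and 3 lower by limma, beside 5.96% and 6.19% of all genes. With the replicate number as a block, GATA1 (adjusted p = 0.0138, limma) and LYL1 (adjusted p = 0.0435, limma) were called higher as well. That made 5 calls in all, beside 6.93% higher and 7.04% lower of all genes under the block. The block spans all 4 groups, so it is not a paired test of the 2 rescues alone. The wild-type rescue differed from the control in 1 member, which was higher, and by limma in 0 that were lower (2 at an unadjusted p under 0.05), beside 5.04% and 4.58%. The D152V rescue differed from the control by limma in 0 higher (0 also at an unadjusted p under 0.05) and 2 lower members, beside 4.61% and 4.94%.

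The median log2 change of the 10 members was -0.42 after knockdown, 0.40 in the wild-type rescue and 0.14 in the D152V rescue, each rescue against the knockdown, where the medians over all tested genes were -0.03, 0.03 and 0.02. Both rescues were set against the same knockdown libraries, so the 2 sets of changes are not independent. Without knockdown replicate 1 the knockdown called 1 member higher and 5 lower, beside 7.26% and 13% of all genes. GATA2 (-0.52, adjusted p = 0.0126), TCF3 (-0.34, adjusted p = 0.0215) and TCF12 (-0.36, adjusted p = 0.0234) were added by limma to the calls. The median change of the members was then -0.35 after knockdown, 0.26 in the wild-type rescue and 0.03 in the D152V rescue, where those of all genes were -0.04, 0.03 and 0.02.

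**Figure D2:**
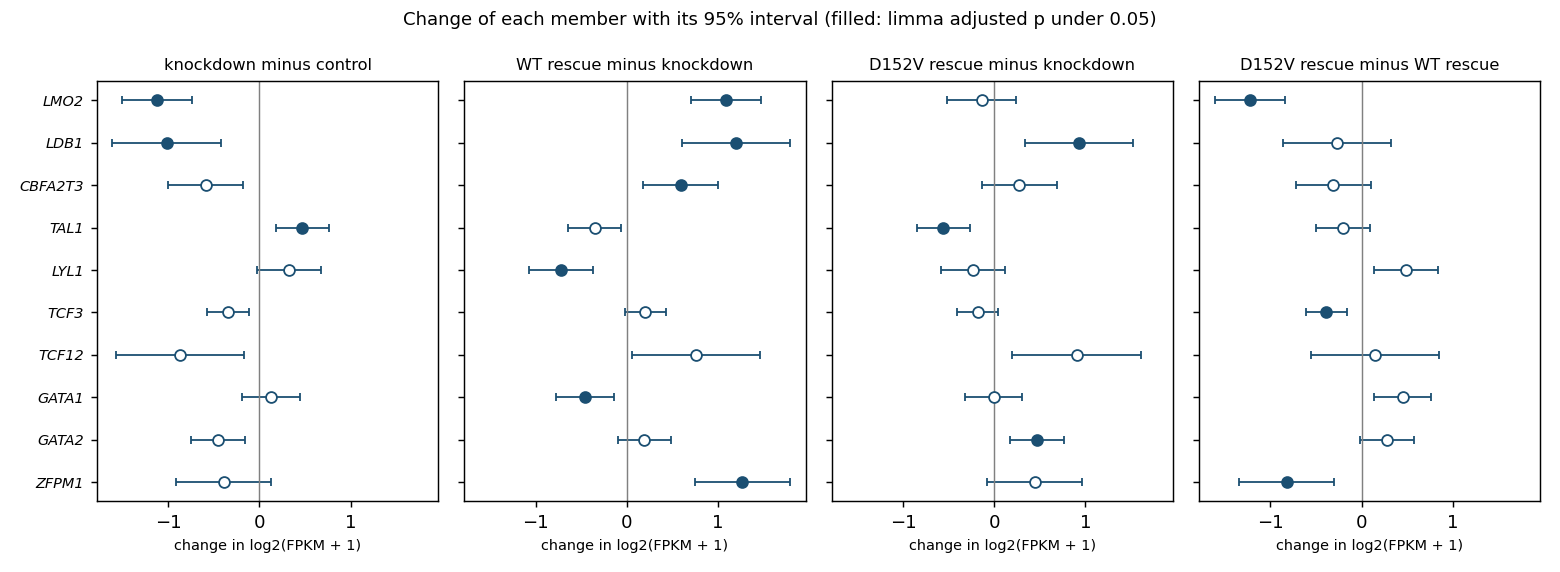
Log2 change of log2(FPKM + 1) for each of the 10 genes in 4 of the comparisons, with 95% confidence intervals from limma and filled points for adjusted p under 0.05. LMO2 lies at -1.12 after knockdown, at 1.09 in the wild-type rescue against the knockdown and at -0.14 in the D152V rescue against the knockdown.

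LMO2 (ENSG00000135363, chromosome 11, 33858576 to 33892076 on GRCh38.p14), the bridge between the TAL1 dimer and the GATA factor, separated the 2 rescues by the widest margin among the members. Its FPKM was 30.3, 22.3 and 31.1 in the control libraries and 13.7, 9.64 and 13.5 in the knockdown. It was 26.5, 29.2 and 25.1 in the wild-type rescue and 12.7, 9.33 and 11.0 in the D152V rescue. Control and wild-type rescue libraries overlapped, as did knockdown and D152V libraries, and every library of the first pair of groups was above every library of the second.

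The means were 27.9 ± 4.88 FPKM in the control, 12.3 ± 2.28 in the knockdown, 26.9 ± 2.09 in the wild-type rescue and 11.0 ± 1.70 in the D152V rescue (SD, n = 3 each), or 44.0%, 96.5% and 39.5% of the control for the last 3. LMO2 fell after knockdown by 1.12 on the log2 scale (SE 0.17, adjusted p = 0.00637, limma). In the wild-type rescue it rose by 1.09 over the knockdown (SE 0.17, adjusted p = 0.00106, limma). The D152V rescue gave -0.14 over the knockdown, with a 95% interval of -0.52 to 0.24 (adjusted p = 0.570, limma), so the interval reaches no further up than 0.24 where the wild-type rescue gave 1.09.

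The 2 rescues differed from each other in LMO2 directly. The D152V line gave -1.22 against the wild-type line (95% interval -1.60 to -0.84, adjusted p = 0.000735, limma). Against the control the D152V rescue gave -1.26 (adjusted p = 0.000916, limma) and the wild-type rescue -0.04 with a 95% interval of -0.42 to 0.34 (adjusted p = 0.937, limma). The calls of LMO2 between the rescues, in the wild-type rescue against the knockdown and in the D152V rescue against the control were made under all 21 alternative settings. That against the control after knockdown was made in 20 of them and was not in the fit of only the 6 libraries compared (adjusted p = 0.13, limma).

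LDB1 (ENSG00000198728, chromosome 10, 102102088 to 102121442), the scaffold to which LMO2 binds, was at 66.8, 65.9 and 65.6 FPKM in the control and 17.3, 40.7 and 46.5 in the knockdown. It reached 78.4, 76.1 and 70.5 in the wild-type rescue and 63.1, 62.5 and 60.7 in the D152V rescue. The lowest value was that of knockdown replicate 1, and all knockdown libraries were below all others. The D152V libraries lay between the knockdown and the control, without overlap with either.

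LDB1 fell by 1.02 after knockdown (SE 0.27, adjusted p = 0.0369, limma), to 52.7% of the control mean. It rose in both rescues over the knockdown, by 1.20 in the wild-type line (adjusted p = 0.00638, limma) and by 0.93 in the D152V line (adjusted p = 0.0301, limma). The difference between the rescues was -0.27, with a 95% interval of -0.86 to 0.33 (adjusted p = 0.628, limma). Without knockdown replicate 1 the changes were -0.59 after knockdown (adjusted p = 0.000862), 0.77 in the wild-type rescue (adjusted p = 2.81e-05) and 0.50 in the D152V rescue (adjusted p = 0.000712), and the rescues then differed, with a log2 change of -0.27 with an adjusted p of 0.0121, all by limma. The knockdown call was lost without any 1 of the 9 libraries outside the knockdown group (adjusted p = 0.052 to 0.119, limma), and the D152V call without any 1 of the 3 D152V libraries (adjusted p = 0.0732 to 0.0827, limma).

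CBFA2T3 (ENSG00000129993, chromosome 16, 88874858 to 88977207), which brings corepressors to the complex, was at 42.4, 39.7 and 42.4 FPKM in the control, 20.5, 32.3 and 30.5 in the knockdown and 43.8, 41.6 and 39.2 in the wild-type rescue. In the D152V rescue it was at 43.4, 30.6 and 27.5, so replicate 1 sat with the control and replicates 2 and 3 with the knockdown. The knockdown change of -0.59 did not pass (adjusted p = 0.0637, limma). The wild-type rescue rose over the knockdown by 0.59 (adjusted p = 0.0300, limma), a call lost without any 1 of the 3 wild-type rescue libraries (adjusted p = 0.0547 to 0.0874, limma). It was also lost with no filter, under quantile normalization, and with each library's trend over transcript length removed (0.38, adjusted p = 0.103, limma). The D152V rescue gave 0.28 (adjusted p = 0.282, limma).

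TAL1 (ENSG00000162367, chromosome 1, 47216290 to 47232335), the helix-loop-helix partner of LMO2, moved the other way from LMO2 and LDB1 after knockdown. It was at 34.9, 38.8 and 36.4 FPKM in the control and 41.3, 56.4 and 57.5 in the knockdown. It was at 38.9, 43.2 and 37.5 in the wild-type rescue and 33.1, 36.0 and 34.2 in the D152V rescue. Every knockdown library was above every control and D152V library, and knockdown replicate 1 fell inside the range of the wild-type rescue.

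TAL1 rose by 0.47 after knockdown (SE 0.13, adjusted p = 0.0448, limma). It was lower in the D152V rescue than in the knockdown, with a log2 change of -0.56 (adjusted p = 0.0135, limma). The wild-type rescue gave -0.35 (adjusted p = 0.0555, limma), and the rescues did not pass the test against each other (-0.20, adjusted p = 0.398, limma). Without knockdown replicate 1 the knockdown rise was 0.62 (adjusted p = 0.000944, limma) and the wild-type rescue was called lower at -0.51 (adjusted p = 0.000577, limma). The knockdown call was lost without any 1 of the 11 other libraries (adjusted p = 0.0584 to 0.151, limma), and the D152V call without D152V replicate 1 (adjusted p = 0.0511, limma).

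LYL1 (ENSG00000104903, chromosome 19, 13099033 to 13102858), a paralog of TAL1 that can dimerize with the same E proteins, had its lowest values in the wild-type rescue, at 47.7, 47.1 and 45.1 FPKM. The control was at 62.8, 66.7 and 56.5, the knockdown at 102, 70.7 and 64.7 and the D152V rescue at 69.4, 70.5 and 58.2. The wild-type rescue overlapped no other group, while the other 3 overlapped each other. It was lower than the knockdown, with a log2 change of -0.72 (adjusted p = 0.00575, limma), and with a log2 change of -0.53 without knockdown replicate 1, the library with the highest LYL1 value (adjusted p = 0.00137, limma). Against the control the wild-type rescue gave -0.40 (adjusted p = 0.153, limma), and the D152V rescue against it gave 0.49 (adjusted p = 0.0740, limma); without knockdown replicate 1 both were called (adjusted p = 0.00617 and 0.00172, limma).

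TCF3 (ENSG00000071564, chromosome 19, 1609292 to 1652615) encodes E2A, the main E-protein partner of TAL1. Its FPKM was 68.1, 74.7 and 78.1 in the control and 57.5, 59.8 and 55.9 in the knockdown. In the rescues it was 68.2, 67.6 and 64.2 with wild-type MYB and 52.8, 54.3 and 45.7 with D152V. The 3 D152V libraries were the lowest of the 12, followed by the 3 knockdown libraries.

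TCF3 was lower in the D152V rescue than in the control, with a log2 change of -0.53 (SE 0.10, adjusted p = 0.00813, limma), a call made under all 21 alternatives. It was also lower there than in the wild-type rescue, with a log2 change of -0.39 (adjusted p = 0.0325, limma). That second call was lost without any 1 of 7 libraries, control replicate 2 and the 6 rescue libraries (adjusted p = 0.0553 to 0.139, limma). The knockdown gave -0.34 against the control (adjusted p = 0.0545, limma).

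TCF12 (ENSG00000140262, chromosome 15, 56918090 to 57291310) encodes HEB, another E protein of the complex. It was at 28.7, 24.6 and 28.0 FPKM in the control, 6.58, 19.8 and 21.9 in the knockdown, 24.5, 24.1 and 26.3 in the wild-type rescue and 29.3, 25.1 and 28.8 in the D152V rescue. All knockdown libraries were below the rest, knockdown replicate 1 by far. No comparison of TCF12 passed the test with all libraries: the knockdown gave -0.87 (adjusted p = 0.0935), the wild-type rescue 0.76 (adjusted p = 0.0833) and the D152V rescue 0.90 (adjusted p = 0.0596), all by limma. Without knockdown replicate 1 these were -0.36 (adjusted p = 0.0234), 0.25 (adjusted p = 0.0566) and 0.40 (adjusted p = 0.0103), all by limma. The knockdown and D152V results were called as well without knockdown replicate 2 or without replicate 3. The wild-type result was called only without knockdown replicate 2 or without replicate 3. The TCF12 transcript of 6114 bases was the longest among the members. With each library's trend over transcript length removed, the knockdown gave -0.64 for TCF12 (adjusted p = 0.129, limma).

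GATA1 (ENSG00000102145, chromosome X, 48786590 to 48794311), the main erythroid GATA factor, was at 109, 100.3 and 135 FPKM in the control, 122, 117 and 135 in the knockdown and 115, 119 and 138 in the D152V rescue. The wild-type rescue was lowest, at 87.1, 80.8 and 105, and overlapped the control. GATA1 was lower in the wild-type rescue than in the knockdown, with a log2 change of -0.46 (adjusted p = 0.0294, limma). The call was lost without knockdown replicate 3 or wild-type rescue replicate 1 or 2 (adjusted p = 0.0706 to 0.112), under quantile normalization, and with each library's trend over transcript length removed (adjusted p = 0.411), all by limma. Between the rescues GATA1 gave 0.45 in the D152V against the wild-type line (adjusted p = 0.0691, and 0.0199 without knockdown replicate 1, both by limma). The knockdown gave 0.13 against the control (adjusted p = 0.548) and the D152V rescue -0.01 against the knockdown (adjusted p = 0.975), both by limma.

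GATA2 (ENSG00000179348, chromosome 3, 128479422 to 128493201), which occupies many GATA sites before GATA1 takes over, was at 69.0, 66.7 and 63.0 FPKM in the control and 53.1, 49.3 and 42.5 in the knockdown. It was at 59.4, 53.7 and 52.3 in the wild-type rescue and 72.4, 74.8 and 55.7 in the D152V rescue. Knockdown and control did not overlap, and the wild-type rescue overlapped the knockdown but not the control. GATA2 was higher in the D152V rescue than in the knockdown by 0.47 (adjusted p = 0.0274, limma), a call lost without knockdown replicate 3 or D152V replicate 1 or 2 (adjusted p = 0.0615 to 0.108, limma) and with the length trend removed (adjusted p = 0.0677, limma). The knockdown gave -0.45 against the control (adjusted p = 0.0510, limma) and the wild-type rescue 0.19 against the knockdown (adjusted p = 0.275, limma).

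ZFPM1 (ENSG00000179588, chromosome 16, 88451769 to 88537031), the GATA cofactor FOG1, was at 7.12, 14.3 and 8.74 FPKM in the wild-type rescue and at most 5.58 in every other library. The control was at 4.36, 4.93 and 5.17, the knockdown at 2.28, 3.83 and 4.48 and the D152V rescue at 4.70, 5.58 and 4.82. The wild-type rescue was above the knockdown by 1.27 (SE 0.24, adjusted p = 0.00242, limma), under all 21 alternatives. It was also above the control by 0.88 (adjusted p = 0.0394, limma), and the D152V rescue was below it, with a log2 change of -0.82 (adjusted p = 0.0444, limma). These calls were lost in 8 and 9 of the 12 fits without 1 library, at adjusted p = 0.0574 to 0.152 and 0.0525 to 0.175 (limma), with the highest value in both without wild-type rescue replicate 2.

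Some members overlap other genes, and the sources used here do not say whether counting used strand, so reads of an overlapping gene could be part of a value; this was not tested. In RefSeq, ZFPM1, CBFA2T3 and TCF12 overlap 3, 5 and 3 other genes, GATA2 overlaps GATA2-AS1, LDB1 overlaps PPRC1 and TCF3 overlaps a small RNA pseudogene. LMO2, TAL1, LYL1 and GATA1 overlap none.

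Ratios within a library show how the RNA of the partners shifted against each other, as a description with no test. TAL1 stood at 1.15, 1.74 and 1.17 times LMO2 in the control and at 3.02, 5.85 and 4.26 times LMO2 in the knockdown. It stood at 1.47, 1.48 and 1.49 times LMO2 in the wild-type rescue and at 2.60, 3.86 and 3.11 times in the D152V rescue. All knockdown and D152V libraries were above all control and wild-type libraries. LMO2 over LDB1 was lowest in the D152V rescue, at a mean log2 ratio of -2.51 ± 0.22, against -1.26 ± 0.27 in the control and -1.48 ± 0.09 in the wild-type rescue (SD, n = 3). The knockdown spread widely, at -1.40 ± 0.93, with replicate 1 at -0.34. The GATA2 to GATA1 ratio was lowest in the knockdown, at a mean log2 of -1.37 ± 0.25, against -0.78 ± 0.28 in the control, -0.72 ± 0.25 in the wild-type rescue and -0.89 ± 0.37 in the D152V rescue (SD, n = 3).

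**Figure D3:**
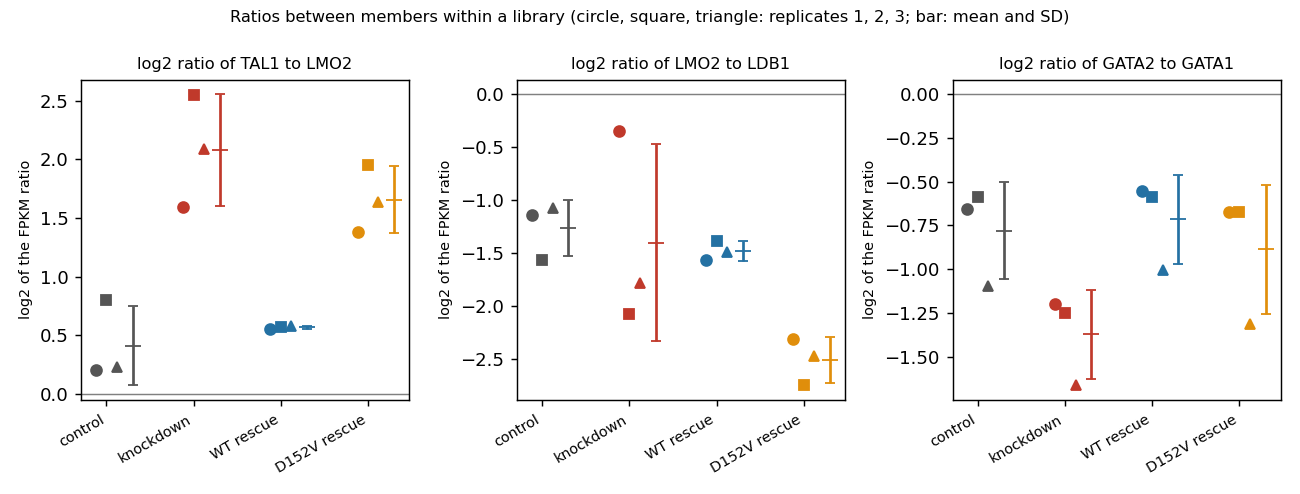
Log2 of the FPKM ratio between 2 members in each library, by group, with the mean and SD of 3 replicates. TAL1 over LMO2 is high in the knockdown and D152V groups, LMO2 over LDB1 is lowest in the D152V group, and knockdown replicate 1 stands apart at -0.34 in LMO2 over LDB1.

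The ID proteins block the complex by binding E proteins without DNA contact, and ID3 gave the widest difference among these partners. ID3 was at 8.43, 8.88 and 7.04 FPKM in the control, 8.05, 9.14 and 7.52 in the knockdown and 9.61, 10.3 and 12.3 in the D152V rescue. The wild-type rescue was at 1.73, 0.804 and 1.29, below all others. ID3 was lower there than in the knockdown, with a log2 change of -2.04 (adjusted p = 2.51e-05, limma) and than in the control, with a log2 change of -2.02 (adjusted p = 4.25e-05, limma). The D152V rescue was above the wild-type rescue by 2.39 (SE 0.17, adjusted p = 5.67e-06, limma), while the knockdown gave 0.02 against the control (adjusted p = 0.940, limma).

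ID1 was lower than in the knockdown in both rescues, with a log2 change of -1.46 in the wild-type rescue (adjusted p = 0.00664, limma) and of -1.0 in the D152V rescue (adjusted p = 0.0474, limma). The D152V call of ID1 was lost in 13 of the 21 alternative settings, and ID1 was not called between the rescues. ID2 and the E protein TCF4 went the way of LDB1. TCF4 fell after knockdown by 1.09 (adjusted p = 0.0305, limma), from 15.6, 12.1 and 11.5 to 2.95, 6.73 and 8.30 FPKM, and rose over the knockdown in both rescues, to 12.6, 16.9 and 14.6 and to 9.85, 11.3 and 13.7. ID2 fell by 0.96 after knockdown (adjusted p = 0.0372, limma) and rose by 0.77 (adjusted p = 0.0359, limma) and 1.09 (adjusted p = 0.0129, limma) in the wild-type and D152V rescues; the wild-type call was lost without knockdown replicate 1 or any 1 wild-type rescue library (adjusted p = 0.063 to 0.0983, limma). Of this list of 6 partner E proteins and ID inhibitors, 4 were tested. After knockdown 0 were higher and 2 lower by limma, beside 3.94% and 7.38% of all genes. The list had the same counts at an unadjusted p under 0.05, for which no share of all genes was computed. The knockdown calls were lost without any 1 of the 3 control libraries for TCF4 (adjusted p = 0.0674 to 0.123, limma) and without any 1 of the 9 libraries outside the knockdown group for ID2 (adjusted p = 0.0504 to 0.14, limma). In the D152V rescue the TCF4 call was lost without any 1 of its 3 libraries (adjusted p = 0.0558 to 0.102, limma) and the ID2 call without replicate 3 (adjusted p = 0.0525, limma).

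Among 9 LIM-domain proteins and LDB1 partners, 5 were tested. LMO4, which competes with LMO2 for LDB1, rose after knockdown by 0.58 (adjusted p = 0.0203, limma), from 12.1, 13.9 and 12.3 to 20.2, 20.6 and 18.0 FPKM. It was lower in the wild-type rescue than in the knockdown, with a log2 change of -0.55 (adjusted p = 0.00687, limma), at 12.9, 15.4 and 11.2. The D152V rescue was at 15.5, 14.6 and 15.2, between the knockdown and the control. Against the knockdown the wild-type rescue called 2 of the 5 higher and 3 lower, beside 20.6% and 16.9% of all genes. The D152V rescue called 0 in either direction by limma, beside 13% and 12%. At an unadjusted p under 0.05, for which no share of all genes was computed, 2 were higher and 2 lower. Without knockdown replicate 1 the D152V rescue called 1 higher and 0 lower, beside 16.8% and 15.9%. The knockdown call of LMO4 was lost without any 1 of the 3 control libraries (adjusted p = 0.0608 to 0.0908, limma).

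**Figure D4:**
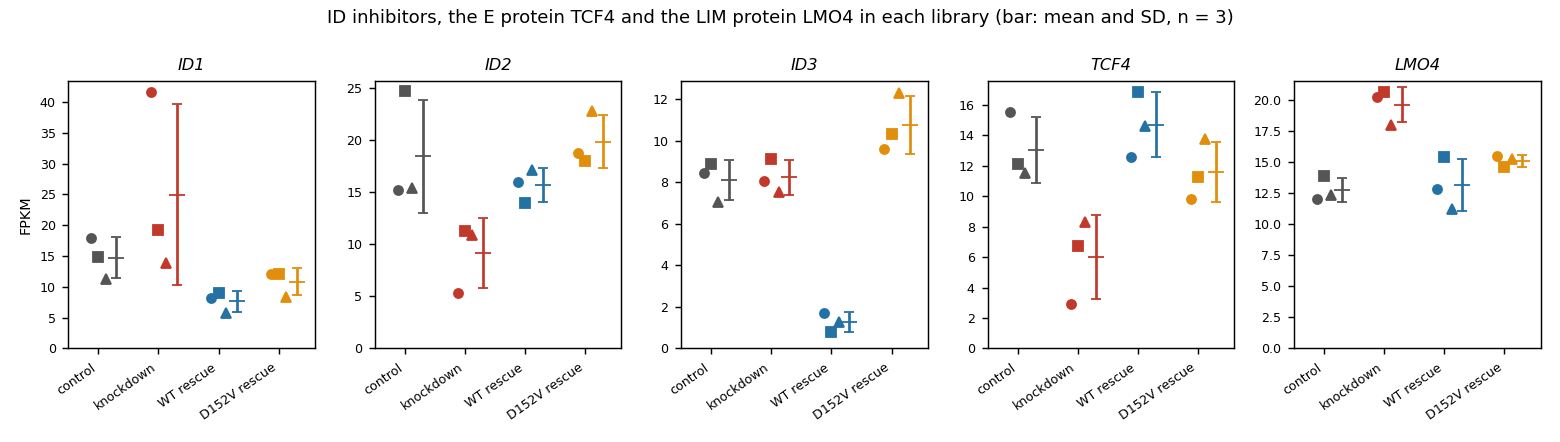
FPKM of named partner genes in the 12 libraries, by group, with the mean and SD of 3 replicates. ID3 is at 0.804 to 1.73 FPKM in the wild-type rescue and at 7.04 to 12.3 in the other 9 libraries.

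Of 23 corepressors and remodelers that bind the complex, 21 were tested. After knockdown 1 was higher and 3 were lower, beside 3.94% and 7.38% of all genes. Without knockdown replicate 1 these were 1 and 9, beside 7.26% and 13% of all genes. In the wild-type rescue 5 were higher and 2 lower than in the knockdown, and 9 and 3 without that library, beside 20.6% and 16.9%, and 25.5% and 19.9%, of all genes. In the D152V rescue 1 was higher and 2 were lower than in the knockdown, and 4 and 5 without that library, beside 13% and 12%, and 16.8% and 15.9%. MBD3, a subunit of the NuRD remodeler, rose after knockdown by 0.60 (adjusted p = 0.0227, limma) and was lower in both rescues, with a log2 change of -1.0 (adjusted p = 0.000436, limma) and -0.95 (adjusted p = 0.00118, limma). CBFA2T2, the paralog of CBFA2T3, fell by 0.46 after knockdown (adjusted p = 0.0477, limma) and rose by 0.62 in the wild-type rescue (adjusted p = 0.00478, limma). The knockdown calls were lost without any 1 control library for MBD3 (adjusted p = 0.0591 to 0.0946, limma) and in 10 of the 12 fits without 1 library for CBFA2T2 (adjusted p = 0.0546 to 0.171, limma). The median change of the list was -0.17 after knockdown, where that of all genes was -0.03.

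All 22 erythroid genes with textbook GATA1 and TAL1 sites were tested. After knockdown 0 passed in either direction by limma, beside 3.94% and 7.38% of all genes. At an unadjusted p under 0.05, for which no share of all genes was computed, 4 were higher and 0 lower. The wild-type rescue had 3 higher and 6 lower than the knockdown, beside 20.6% and 16.9% of all genes, and 4 and 7 without knockdown replicate 1, beside 25.5% and 19.9%. The D152V rescue had 1 higher and 3 lower than the knockdown, beside 13% and 12%, and without that library the balance turned, to 5 higher and 3 lower, beside 16.8% and 15.9%. Between the rescues 4 were higher and 1 was lower in the D152V line, beside 5.96% and 6.19%, and 7 and 1 without that library, beside 13.7% and 18%. The embryonic globin HBE1 was at a mean of 54.2 FPKM in the wild-type rescue and 249 in the D152V rescue, against 876 in the control and 2049 in the knockdown, with -5.03 (adjusted p = 9.9e-05, limma) and -2.98 (adjusted p = 0.00353, limma) against the knockdown. Without knockdown replicate 1 these were -4.58 (adjusted p = 5.34e-05, limma) and -2.53 (adjusted p = 0.00336, limma). HBE1 was not called between knockdown and control. BCL2L1, a survival factor of erythroblasts, was higher in the D152V rescue than in the wild-type rescue, at 105 to 119 against 58.0 to 66.2 FPKM, by 0.87 (adjusted p = 0.000591, limma).

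Of 8 progenitor genes with textbook GATA2 sites, 5 were tested. KIT, a receptor of progenitors, was at 5.02, 9.48 and 6.95 FPKM in the control, 1.74, 4.48 and 3.50 in the knockdown, 10.6, 7.84 and 7.94 in the wild-type rescue and 3.93, 3.72 and 2.97 in the D152V rescue. It fell by 0.96 after knockdown (adjusted p = 0.0401, limma), rose by 1.25 in the wild-type rescue (adjusted p = 0.00438, limma) and was lower in the D152V than in the wild-type rescue, with a log2 change of -1.10 (adjusted p = 0.0178, limma). The knockdown call of KIT was lost without any 1 of the 9 libraries outside the knockdown group (adjusted p = 0.0534 to 0.149, limma), and the call between the rescues without wild-type replicate 1 or D152V replicate 2 or 3 (adjusted p = 0.0548 to 0.0803, limma). RUNX1, a regulator of blood stem cells, was likewise higher in the wild-type rescue than in the knockdown, by 0.85 (adjusted p = 0.00469, limma), and lower in the D152V than in the wild-type rescue, with a log2 change of -0.88 (adjusted p = 0.00832, limma). SPI1, which GATA1 antagonizes, was lower in both rescues than in the knockdown, with a log2 change of -0.98 (adjusted p = 0.00714, limma) and -1.56 (adjusted p = 0.00124, limma).

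The genes most like a member were ranked by the root mean square difference of log2 profiles over the 12 libraries, each centred on its own mean, among 8853 genes with a mean of at least 5 FPKM. For LMO2 they were FAM72A (0.27), STAT5A (0.28), HSPG2 (0.28) and LEF1 (0.30), where the median candidate was at 0.66. For LDB1 they were ARHGAP21 (0.08), TAF2 (0.09), QSER1 (0.09) and DSG2 (0.10), with a median of 0.60. For TAL1 they were LAMP1 (0.09), TPRG1L (0.11), AP1M1 (0.13) and RETSAT (0.13), and for GATA2 SCAMP2 (0.11), LEPR (0.11), SCAP (0.12) and PRKD2 (0.12), with medians of 0.40 and 0.38. The 12 profiles share the groups and the length pattern of knockdown replicate 1.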

How the data were processed

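The authors deposited 1 table of FPKM values with a column per library (12 libraries, poly(A) RNA with a stranded kit, per the labels' protocols), and 0 columns belonged to other samples. The submitters' processing notes name TopHat2 2.0.13 for GRCh38, Cufflinks 2.2.1, Trimmomatic 0.33 and bcl2fastq 2.17.1.14. Not given in the sources used here are the annotation, the Cufflinks program and whether strand was used. FPKM holds no read counts, so depth is unknown, no count model was used and no counting interval is given.

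Genes with at least 1 FPKM in at least 3 libraries were tested as log2(FPKM + 1), on which changes at low FPKM come out smaller. One limma 3.58.1 model (R 4.3.3; Python 3.11.15, pandas 2.3.3 and matplotlib 3.10.9 for tables and figures) held all 12 libraries, group means and trended variances, leaving 8 residual degrees of freedom; 6 contrasts were adjusted by Benjamini-Hochberg over all genes. The model was tested on simulated data. Groups and replicate numbers came from the sample titles. Deviations from group means over genes correlated at r = 0.153 to 0.233 between same-numbered libraries of the 2 rescues. Between their other libraries r was -0.22 to 0.062. The rescues were taken as paired on these low values alone. Same-numbered libraries of the wild-type rescue and the control had r = 0.024 to 0.349 and were not taken as paired.

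The members and lists were chosen with earlier results of these data known. Named partners were at most 4 called genes of each of 6 lists. As alternatives no filter, a pseudocount of 0.1, a mean of at least 5 FPKM, quantile normalization, median-ratio scaling, the replicate block, only the 6 libraries compared, and leaving out each library were run; removing each library's trend with transcript length, alone or with the block, was added after seeing the data. Symbols, GRCh38 coordinates and promoters came from NCBI RefSeq tables (GRCh38.p14), lengths from GENCODE canonical transcripts. The summed level of the lymphoid marker list is not reported here.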

Additional observations from a re-analysis of the deposited data

Results flagged for a closer look

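For 3 members the change from the knockdown differed between the rescues, by the direct limma test of D152V_Rescue against MYB-WT_Rescue: LMO2 (-1.22), TCF3 (-0.39) and ZFPM1 (-0.82), as log2 changes. Of all genes 5.96% were higher and 6.19% lower in that test. With the replicate block over all 4 groups, GATA1 (0.45, adjusted p = 0.0138, limma) and LYL1 (0.49, adjusted p = 0.0435, limma) were called higher as well, beside 6.93% and 7.04%. The calls of TCF3 and ZFPM1 were lost without some single libraries, as given with their values, and the call of LMO2 was made in each of the 12 fits without 1 library. Line, MYB level and substitution cannot be told apart.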

How the results depend on the processing

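Over 60 member results and 21 alternative settings, 1101 of 1260 values kept direction and side of the threshold, 88 lost and 42 gained a call, and 29 changed sign, all of them of uncalled results; the cause was not tested. Of the 18 member calls, 5 were made under all settings.

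The share of all genes called, as percent higher and lower, follows each count of called members, as a range for the fits without 1 library. After knockdown 3 (3.94% and 7.38%) became 1 with no filter (0.759% and 1.81%), 5 with a mean of at least 5 FPKM (5.76% and 11.2%) and 0 by limma with only the 6 libraries compared (0.0299% and 0.0896%). On leaving out a library it was 1 to 6, beside 0.24% to 8.21% higher and 1.06% to 13% lower. For the wild-type rescue against the knockdown 6 became 2 with the 6 libraries (7.15% and 5.46%). Without a library it was 4 to 7, beside 13% to 25.5% higher and 10.4% to 19.9% lower. For the D152V rescue against the knockdown 3 became 0 by limma with the 6 libraries (2.46% and 1.64%). Without a library it was 0 to 4, beside 5.6% to 16.8% higher and 5.72% to 16.2% lower. Between the rescues 3 became 5 with the replicate block (6.93% and 7.04%) and 6 with the 6 libraries (10.7% and 13.7%). Without a library it was 1 to 6, beside 3.34% to 13.7% higher and 3.15% to 18% lower. For the wild-type rescue against the control 1 became 0 with no filter (2.85% and 1.87%) and with a mean of at least 5 FPKM (3.44% and 4.27%), 2 with quantile normalization (6.31% and 5.68%) and with the length trend removed and a replicate block (7.16% and 7.21%), and 3 with the 6 libraries (12.2% and 14%). Without a library it was 0 to 2, beside 2.32% to 13.9% higher and 2.29% to 15.9% lower. For the D152V rescue against the control the count was 2 in each fit without 1 library, beside 2.38% to 11.3% higher and 2.62% to 16.5% lower. Same-numbered libraries of other group pairs correlated at -0.042 to 0.349 and were not taken as paired; there the replicate block gave GATA2 an adjusted p of 0.0272 after knockdown and TAL1 one of 0.0367 in the wild-type rescue (limma).

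Signs changed for GATA1, D152V rescue against knockdown, to 0.24 under quantile normalization and 0.25 with the length trend removed (alone or with the block), with -0.0847 to 0.0494 without a library. With the length trend removed, alone or with the block, GATA1 was -0.0805 after knockdown, TCF3 -0.0229 in the wild-type rescue against the knockdown, LYL1 0.0143 in the D152V rescue against the knockdown, and LMO2 0.0110 and CBFA2T3 -0.0354 in the wild-type rescue against the control. Leaving out a library gave LMO2 -0.186 to 0.0455 and CBFA2T3 -0.0381 to 0.0400 in the wild-type rescue, and ZFPM1 -0.0120 to 0.0957, TCF12 -0.0321 to 0.101 and GATA2 -0.0598 to 0.150 in the D152V rescue, against the control.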
